A study of Mus musculus with 20 samples.

Results

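The genes described here are those named for the proteins of the cytosolic ribosome. They were taken from a table of 23020 gene rows as every symbol made of Rpl, Rps, Rplp or Rpsp, a number and at most one trailing letter a, x or l, which found 80 genes. The rule reads names and no measured value, but it was set with earlier results of these data known. The 80 are 46 genes of the large subunit, 31 of the small subunit and the 3 stalk genes Rplp0, Rplp1 and Rplp2. These counts include Rpl6l and Rps4l, which are annotated as pseudogenes, and Rps4l is also among the genes tested below. The annotated symbols Rpl3l and Rpl32l, which have the same form, were not analysed here.

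RNA came from small intestinal crypts, the epithelial pits of the gut wall, of 20 C57BL/6 mice. The mice were wild-type or lacked Xiap (Xiap-/-), the gene of an inhibitor of cell death, and were kept either with their own genotype ("housed apart" below) or together for 4 weeks ("co-housed"). Housed apart there were 6 wild-type and 4 Xiap-/- mice, and co-housed there were 5 of each genotype. The labels leave the cage, the age and the deleted stretch of Xiap unnamed, and nothing says that mice of a group were kept in separate cages, so the p-values below measure the spread between these samples only. The Xiap transcript itself was at 6.56 to 7.08 in wild-type and 6.25 to 6.48 in Xiap-/- mice housed apart, and at 6.36 to 6.84 and 6.29 to 6.91 in the co-housed groups. It differed by -0.43 between genotypes housed apart (adjusted p = 0.0599, limma) and by -0.05 co-housed (adjusted p = 0.868). Co-housed it did not separate the genotypes, and whether the 3′ reads lie in the deleted stretch is not known, so it is no check of the labels.

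The assay counted molecules at the 3′ ends of polyadenylated transcripts, so a gene's length does not scale its level, and levels of different genes are set side by side on that ground. All levels are the deposited normalized values on a log2 scale, and all differences are differences of log2 values. The tissue label was checked against markers, because the text on RNA extraction names another organ. The Paneth cell defensin Defa24 had a mean of 14.17, the absorptive cell gene Fabp2 13.75 and the goblet cell gene Zg16 12.80. The hepatocyte product Alb had -2.70, but not every gene of the hepatocyte list was low. Of 9 listed hepatocyte genes 5 had rows, and 2 reached the minimum level for testing given below. The highest of them was Apob, with a mean of 9.96. The file gives no read totals, so depth is unknown. As a stand-in, the share of very low genes that stood above their own floor was taken in each library. Housed apart it averaged 7.71% ± 3.69 (SD, n = 6) for wild-type and 17.1% ± 10.5 (n = 4) for Xiap-/- mice. Co-housed it averaged 8.74% ± 1.47 for wild-type and 8.77% ± 2.77 for Xiap-/- mice (n = 5 each).

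A ribosome has a small subunit, which reads the messenger RNA, and a large subunit, which joins amino acids into protein. The proteins are needed in about equal amounts. Many of their mRNAs begin with a C followed by a run of pyrimidines, the terminal oligopyrimidine (TOP) tract, through which the growth kinase mTOR and the RNA-binding protein LARP1 set their translation and stability. The stalk proteins reach out from the large subunit and call in the elongation factors. Dividing crypt cells are known for a high demand for ribosomes. Ribosomal protein genes are also known for very many processed pseudogenes, copies of the mRNA pasted back into the genome, whose sequence can be nearly that of the parent.

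The TOP tract could be read from the annotated starts. In the RefSeq promoter table (GRCm38.p6) 58 of the 80 genes had an entry, and 22 had none. A C followed by at least 4 more C or T, beginning within 5 bases of an annotated start on the sense strand, was found in 28 of the 58 (48.3%). The same search found it in 5328 of 27025 genes in the table (19.7%) and in 14 of 69 genes of the mitochondrial ribosome (20.3%), which is made of other proteins. The following windows hold 20 bases before and 10 bases from the start, with the pyrimidine tract in capitals. They are shown because Rpl13a, Rps18, Rplp2 and Rps21 are the genes the comparisons below turn on, Rps27 and Rps27l are a parent and its paralog with very different levels, and Rps3 is a gene in which the search found no tract.
Rpl13a (chr7:45128736-45128765, minus strand): gataagaaaccctgcgacaagaCCTCCTCC
Rps18 (chr17:33955656-33955685, minus strand): acttatacgtcacttccgCTCTCTCTTCCa
Rplp2 (chr7:141447631-141447660, plus strand): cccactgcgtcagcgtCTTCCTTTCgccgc
Rps21 (chr2:180257359-180257388, plus strand): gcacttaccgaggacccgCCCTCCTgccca
Rps27 (chr3:90213639-90213668, minus strand): acaggatttccgctttcgCTCCTTTCCggc
Rps27l (chr9:66946066-66946095, plus strand): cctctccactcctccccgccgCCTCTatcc
Rps3 (chr7:99483700-99483729, minus strand): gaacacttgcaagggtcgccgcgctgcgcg

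The tract lay at or beside the annotated start shown for these 6 genes and covered 11 bases in Rps18. Rps21 and Rps27l each have another annotated start, not shown, where the search found no tract. In Rpl13a it ran to the end of the window, so its full length is not shown. No match, as in Rps3, says only that these letters are not in this window. Over windows of 300 bases, on both strands, the ETS core CCGGAAG was found in 24 of the 58 genes (41.4%), in 26 of 69 mitochondrial ribosomal protein genes (37.7%) and in 9.93% of all genes in the table. The YY1-type core AAGATGGCG was found in 3 of 58 genes (5.17%), in 8 of 69 mitochondrial ribosomal protein genes (11.6%) and in 1.64% of all genes. The TATA box letters TATAAA, searched in the 40 bases before the start, were found in 0 of 58 against 2.78%. A match is a description of letters, not of bound factors.

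Levels spread widely. Among the highest means over the 20 libraries were those of the stalk gene Rplp1 (11.38), the large subunit genes Rpl8 (11.09) and Rpl4 (10.93), and the small subunit gene Rps14 (11.01). The lowest were those of Rpl39l (-2.52), Rps6 (-0.91), Rpl10l (-0.54), Rpl24 (0.32) and Rpl6l (0.94). Rps6, a core protein of the small subunit and the classic substrate of S6 kinase, lay between -0.95 and -0.83 in all 20 libraries. Testing required a mean of at least log2 of 10 (3.32), which 63 of the 80 genes reached: 35 of the large subunit, 25 of the small subunit and all 3 stalk genes. Rps7 (3.32), Rpl7a (3.43), Rps13 (3.56), Rps16 (3.73) and Rpl36 (3.82) lay just inside that bound, and Rpl35 (3.25), Rps12 (2.95) and Rps29 (2.87) just outside. The other 14 genes below it were the 5 lowest above and Rpl28, Rpl36a, Rps28, Rpl27, Rps27, Rpl10, Rps27a, Rpl10a and Rpl23a, with means from 1.91 to 2.60.

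The low rows were mostly genes whose 3′ end is not unique. For each gene the last 300 bases of its principal transcript (GENCODE M21) were cut into words of 75 bases, the length of the cDNA read, and the share of words found exactly in a transcript of another gene was counted. Of the 80 genes 51 shared at least 1 word and 29 shared over 50% of them, against 783 (5.37%) and 327 (2.24%) of 14594 protein-coding genes and 4 of 76 mitochondrial ribosomal protein genes with any shared word. Among the 17 genes that were not tested, 12 shared over 50%, and the median share was 81.4%. Among the 63 tested it was 17, with a median of 9.29%.

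Rps6 shared 81.4% of its words with 9 other genes, Rpl10 100% with 10, Rps12 93.8% with 22 and Rpl24 79.2%. The median level was 6.95 in the 29 genes that shared no word, 8.81 in the 22 that shared up to 50% and 3.82 in the 29 above. Sharing did not order the levels alone. Rpl13 stood at 9.21 with 81.4% shared and Rps2 at 9.08 with 64.6%, and Rpl28 stood at 1.91 with none. With words of 40 bases, a length chosen after seeing the data, the medians were 6.37, 8.53 and 4.80. How the authors' counting treated reads with several matches is not given in the sources used here, so the levels of the genes with shared ends are uncertain, and a low row is no measure of how much of that mRNA the crypts held.

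**Figure D1:**
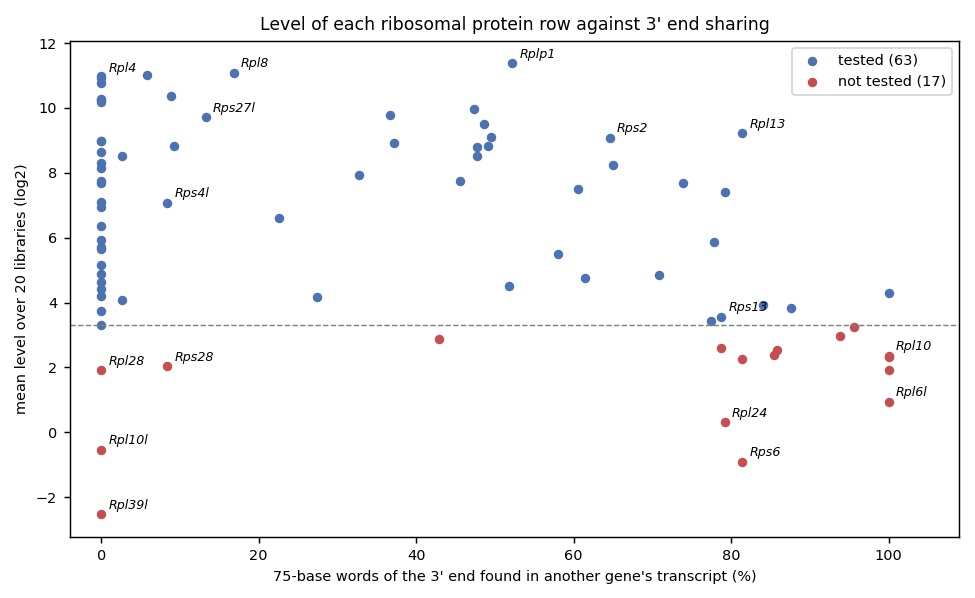
Each point is 1 of the 80 genes. The horizontal axis gives the percent of 75-base words of the last 300 transcript bases that occur in another gene's transcript, the vertical axis the mean log2 level over 20 libraries, and the dashed line the minimum for testing (3.32). Of the 17 untested genes in red, 12 lie to the right of 50%.

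The table also has 249 rows named as ribosomal protein pseudogenes with the ending -ps, of which 47 reached the minimum. For 57 of the 80 genes there was such a row, and for 17 of them the highest pseudogene row stood above the gene. Rps13-ps2 had a mean of 9.70 while Rps13 had 3.56, Rps16-ps2 7.52 while Rps16 had 3.73, and Rpl36a-ps2 7.27 while Rpl36a had 1.93. Rps6-ps3, at 3.03, stood above Rps6 and was also below the minimum. Whether these rows hold reads of the parent genes was not tested.

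Paralogs named with a trailing l showed both orders. Rps27l, a paralog of Rps27 known as a p53 target, had a mean of 9.72, with libraries from 9.24 to 10.07, whereas Rps27 had 2.34, with libraries from 2.20 to 2.51. All words of the Rps27 end were shared with other genes, against 13.3% of those of Rps27l. Rps4l, annotated as a transcribed processed pseudogene, stood at 7.08 and its parent Rps4x at 4.16. The testis paralogs Rpl10l and Rpl39l stood at -0.54 and -2.52. Rpl39, the parent of Rpl39l, stood at 8.53, and Rpl10 at 2.36. Rpl6l, annotated as a processed pseudogene, shared all its words.

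The ribosomal protein genes varied between mice of a group about as much as other genes. The median SD around the group means was 0.149 over the 63 tested genes, 0.144 over 73 mitochondrial ribosomal protein genes and 0.151 over all 9521 tested genes. It was smallest for Rpl27a (0.0691), Rpl8 (0.0844), Rps20 (0.0926), Rpl14 (0.0949) and Rpl38 (0.0956). Among the largest were those of Rpl7 (0.229), Rps14 (0.225), Rpl39 (0.224) and Rps18 (0.219). Part of that variation was common to the genes. After each library's mean over the 63 genes was taken away, the median SD was 0.128, and 49 of the 63 genes had a smaller one. Rps4x (0.197), Rpl7 (0.187), Rplp1 (0.183), Rps13 (0.181) and Rps26 (0.176) then varied most. The mitochondrial ribosomal protein genes had a median SD of 0.111 after the same step with their own library mean, with 62 of 73 smaller.

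One library held many of the lowest values of these genes. Co-housed wild-type mouse 3 held the lowest value of the 20 libraries for 30 of the 63 genes, and co-housed Xiap-/- mouse 5 held the highest for 18. The mean over the 63 genes was 7.15 in the first and 7.57 in the second. Neither mean stood apart from its group by Dixon's criterion, which is described below. The same wild-type library had the lowest mean of the 73 mitochondrial ribosomal protein genes (6.71) and of the 47 tested ribosomal protein pseudogene rows (5.22).

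**Figure D2:**
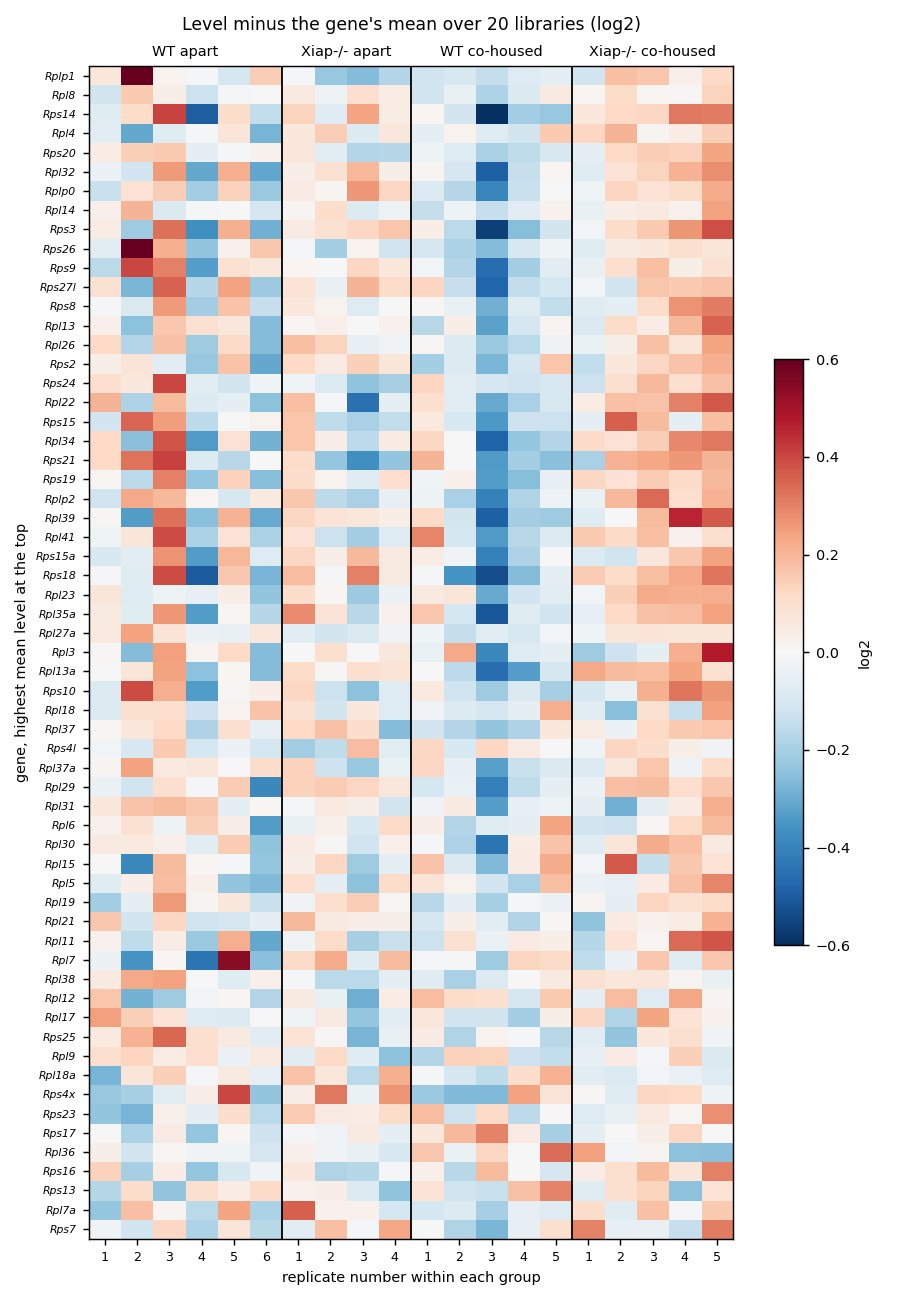
Rows are 61 of the 63 tested ribosomal protein genes, ordered by mean level, and columns the 20 mice. Colour gives the level minus the gene's own mean over 20 libraries (log2), drawn between -0.6 and 0.6. The column of co-housed wild-type mouse 3 is blue for most of the genes with high levels, in the upper part of the plot.

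The genotypes were compared in both housings. The co-housed comparison, which had the larger median difference, is given first. Here the ribosomal protein genes lay mostly above 0, that is, higher in Xiap-/- mice: 57 of 63, with a median difference of 0.17 and a range from -0.17 to 0.44. Over all tested genes 51.1% lay above 0, and the median was 0.0037. No ribosomal protein gene passed limma's test at an adjusted p under 0.05, where 0.0315% of all tested genes did (0.021% higher and 0.0105% lower). At an unadjusted p under 0.05 there were 23, all above 0, against 5.43% of all genes higher, 6.59% lower and 12% in either direction. The stalk genes had a median of 0.26 (3 of 3 above 0), the small subunit 0.21 (23 of 25) and the large subunit 0.13 (31 of 35). Their mean levels fell in the same order, 10.10, 7.71 and 6.93, and differences varied with level, as given below. A difference between subunits was not tested.

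Rpl13a had the smallest p. It encodes a large subunit protein that is also known for silencing inflammatory transcripts outside the ribosome (chr7:45125558-45128761, GRCm38). Its level was 7.67, 7.52, 7.21, 7.34 and 7.57 in the 5 co-housed wild-type mice and 7.90, 7.86, 7.85, 7.91 and 7.76 in the 5 Xiap-/- mice. The groups did not overlap, and the difference was 0.39 ± 0.10 (SE; adjusted p = 0.0970, limma; 95% interval 0.20 to 0.59).

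Rps18, a protein of the small subunit head (chr17:33951999-33956001), was at 8.23, 7.89, 7.71, 7.98 and 8.18 in co-housed wild-type and 8.39, 8.35, 8.42, 8.47 and 8.56 in co-housed Xiap-/- mice. Every Xiap-/- mouse again lay above every wild-type mouse, by 0.44 ± 0.12 on average (adjusted p = 0.137). Rps14, a small subunit protein whose human gene is lost in the 5q- syndrome, was at 11.02, 10.90, 10.37, 10.80 and 10.78 against 11.07, 11.13, 11.13, 11.32 and 11.31. Its groups did not overlap either, with a difference of 0.42 ± 0.13 (adjusted p = 0.193).

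Rps3, a small subunit protein at the mRNA entry that also takes part in DNA repair (chr7:99477896-99483738), was at 10.23, 10.02, 9.63, 9.93 and 10.08 against 10.17, 10.29, 10.34, 10.45 and 10.57. The lowest Xiap-/- mouse lay below the highest wild-type mouse, and the difference was 0.39 ± 0.12 (adjusted p = 0.193). The stalk gene Rplp2 (chr7:141447370-141451585) was at 8.60, 8.44, 8.23, 8.45 and 8.60 against 8.59, 8.83, 8.97, 8.73 and 8.84. The lowest Xiap-/- mouse lay just below the highest wild-type mice, with a difference of 0.33 ± 0.10 (adjusted p = 0.178).

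Of the 63 genes 5 had co-housed groups that did not overlap, all higher in Xiap-/- mice, against 1.33% of all tested genes. Besides Rpl13a, Rps18 and Rps14 these were the large subunit gene Rpl29 (0.27 ± 0.09) and the small subunit gene Rps19 (0.26 ± 0.10), the gene most often mutated in Diamond-Blackfan anaemia. In the other direction there were 0, against 1.75%. The lowest difference was that of Rpl36, -0.17 ± 0.09.

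**Figure D3:**
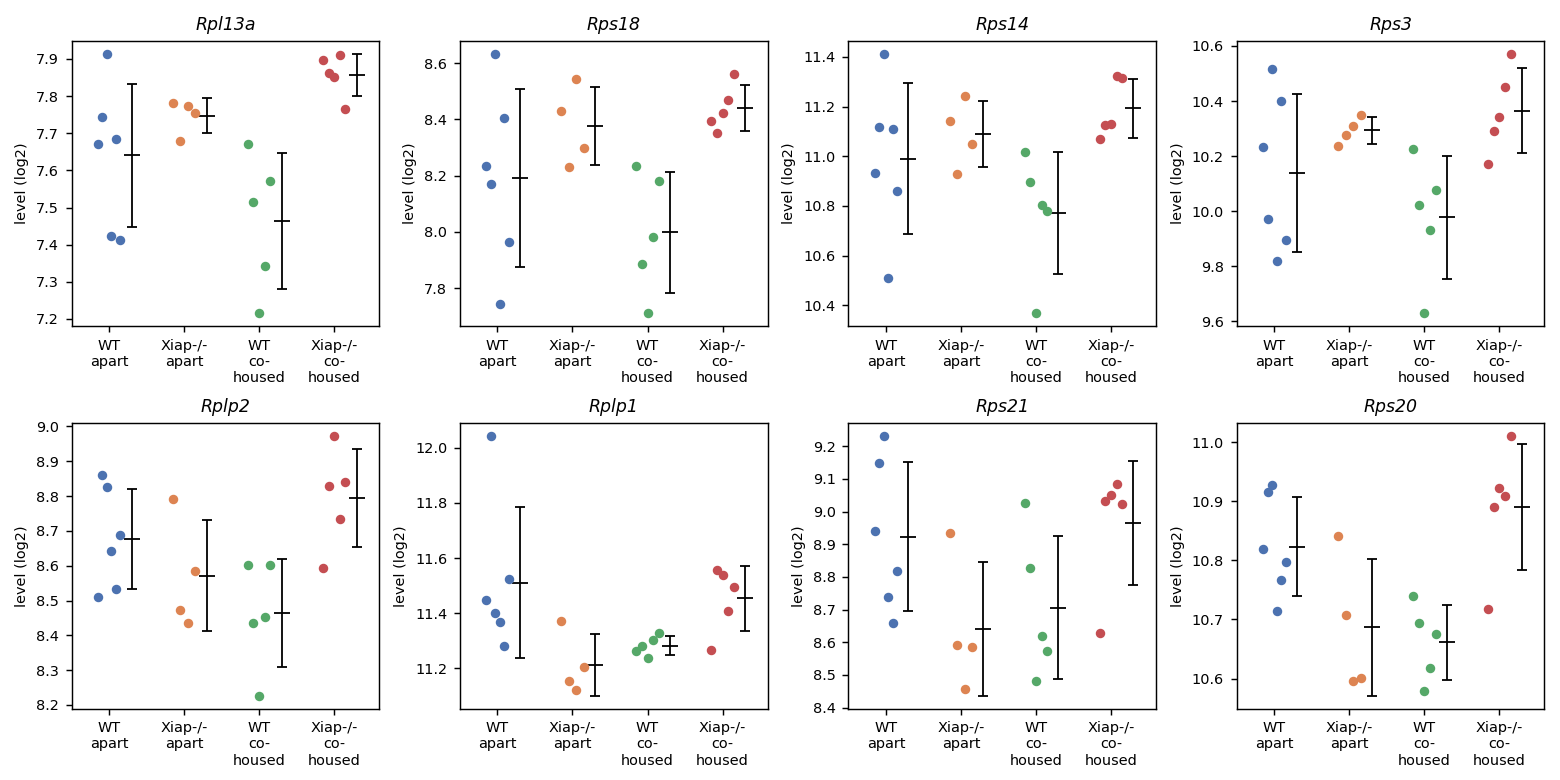
Levels (log2) of 8 ribosomal protein genes in the 4 groups, 1 point a mouse, with group mean and SD at the right of each group. Vertical axes do not start at 0 and differ between genes. In the panels of Rpl13a, Rps18 and Rps14 each red point (co-housed Xiap-/-) lies above each green point (co-housed wild-type).

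Whether these genes passed differed between fits, and why was not tested. When limma was fitted to the 10 co-housed mice alone, 7 of the 63 passed (11.1%, against 1.49% of all tested genes). They were Rps18 (adjusted p = 0.0126), Rpl13a (0.0144), Rps14 (0.0234), Rps3 (0.0329), Rpl22 (0.0342), Rplp2 (0.0368) and Rpl34 (0.0472). With a weight for each library 5 passed (7.94%, against 1.67%), namely Rpl13a, Rps18, Rps14, Rps3 and Rplp2. The median difference was 0.13 without co-housed wild-type mouse 3.

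The size of the difference varied with a gene's level and with the length of its transcript. In the 16 genes with a mean under 5 the median was 0.04, in the 9 between 5 and 7 it was 0.09, in the 21 between 7 and 9 it was 0.25 and in the 17 above 9 it was 0.22, with all 17 above 0. Other genes with a mean above 9 had a median of 0.06, with 67.1% of 380 above 0. Short transcripts as a class lay above 0 too. Of 283 other genes with transcripts under 800 bases 83.4% lay above 0, with a median of 0.11, while the 25 ribosomal protein genes of that length had 0.21. The median transcript was 914 bases in the 63 genes and 3024 in other tested genes. Between 800 and 1500 bases the medians were 0.14 over 28 ribosomal protein genes and 0.07 over 1077 others. In genes of 1500 bases or more the medians were 0.13 over 10 ribosomal protein genes and -0.02 over 7297 others. With both held, that is, transcripts under 800 bases and a mean of at least 7, all 17 ribosomal protein genes lay above 0 with a median of 0.25, and 88.2% of 153 other genes did with a median of 0.12. The part of transcript length in the result was not tested. By 3′ end sharing the medians were 0.14 with no shared word (24 of 26 above 0), 0.25 up to 50% (20 of 20) and 0.13 over 50% (13 of 17).

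Several other lists stood with the ribosomal protein genes in this comparison, and none had a member that passed. The 47 pseudogene rows had a median of 0.18, with 43 above 0. The 8 elongation factors, which move the ribosome along the mRNA, had 0.11, all 8 above 0, with Eef1b2 at 0.20 ± 0.08 and Eef2 at 0.11 ± 0.10. The 12 other genes known to carry TOP tracts had 0.13, with 10 above 0, and among them Rack1, a scaffold on the small subunit, had 0.24 ± 0.09 and the poly(A)-binding protein gene Pabpc1 -0.16 ± 0.11. The 6 tested ribosomal protein genes whose names the rule leaves out had 0.09, with Rps3a1 at 0.33 ± 0.11 and Rpl36al at 0.06 ± 0.09. The 73 mitochondrial ribosomal protein genes also had 0.09, with 58 above 0.

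Genes that build ribosomes or start translation had medians at or below 0. A difference between lists was not tested. The 53 tested ribosome biogenesis genes had a median of -0.06, with 18 above 0, among them Ncl, encoding nucleolin, at -0.09 ± 0.13 and Npm1, encoding nucleophosmin, at 0.22 ± 0.10. The 30 initiation factor genes had a median of -0.00058 with 15 above 0. The 22 genes of growth control had -0.05, with 6 above 0, and the 20 cell cycle genes -0.0071.

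Markers of T cells lay above 0 in the same comparison, 12 of 12 tested of 13 listed, with a median of 0.25 and none past the test. The granzyme gene Gzma had 0.41 ± 0.25 and the chemokine gene Ccl5 0.41 ± 0.25. Their mean level ranged from 5.30 to 5.75 in the 5 co-housed wild-type and from 5.41 to 6.17 in the 5 co-housed Xiap-/- mice. Medians above 0 were also those of goblet (0.11, 7 of 8 above 0), Paneth (0.08, 9 of 11), stem (0.04, 10 of 12) and absorptive cell genes (0.03, 9 of 15). Of the 20 cell cycle genes 9 lay above 0, with a median of -0.0071. B and plasma cell markers had 0.06, with 4 of 5 above 0, the highest of them being Cd74 at a mean of 8.89. Few markers of myeloid (4 of 10 rows), stromal (1 of 11) and blood cells (1 of 5) reached the minimum. Transcripts of the mitochondrial genome, read as a sign of RNA quality, had a median of -0.19 over 8 genes. The part of any of these cell types, or of RNA quality, in the ribosomal protein result was not tested. In bulk samples fewer cells of a type and less RNA per cell cannot be told apart.

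**Figure D4:**
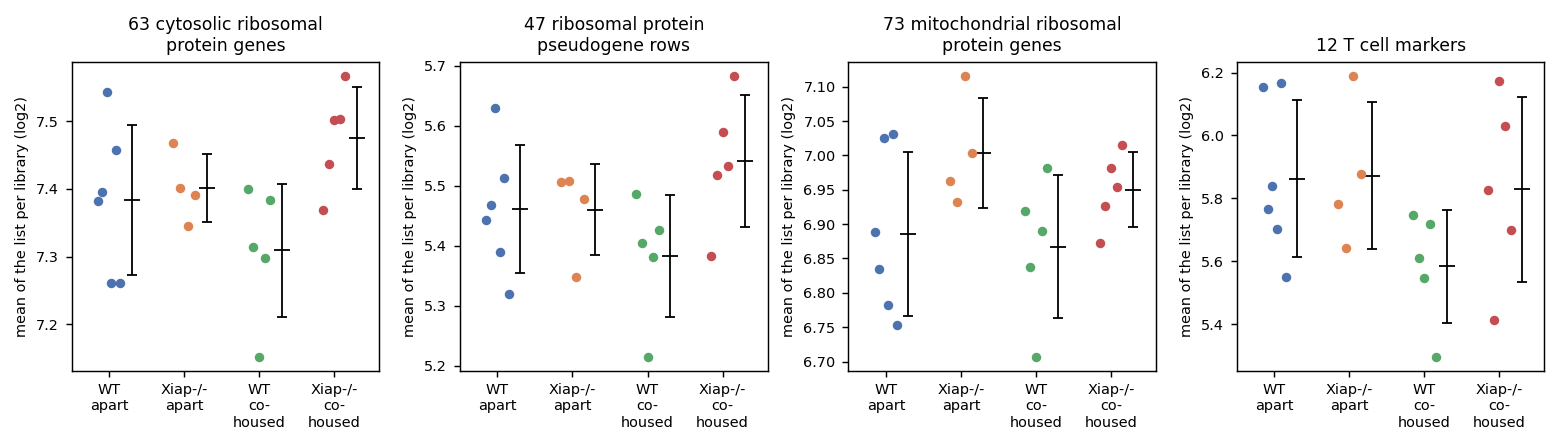
Mean log2 level per library of 63 ribosomal protein genes, 47 pseudogene rows, 73 mitochondrial ribosomal protein genes and 12 T cell markers. Each point is a mouse, bars give the group mean and SD, and the vertical axes differ and do not start at 0. The co-housed wild-type mouse at 7.15 in the first panel is also the lowest of its group for the pseudogene rows (5.22) and the mitochondrial ribosomal protein genes (6.71).

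In mice housed apart the ribosomal protein genes lay on both sides of 0. The mean over the 63 genes was 7.38 ± 0.11 (SD, n = 6) for wild-type and 7.40 ± 0.05 (n = 4) for Xiap-/- mice. Co-housed it was 7.31 ± 0.10 and 7.48 ± 0.08 (n = 5 each). The median difference was 0.03, with 39 of 63 above 0 (49.1% of all genes) and a lowest difference of -0.30. Under 800 bases the median was 0.07 over 25 ribosomal protein genes (60% above 0) and 0.09 over 283 others (68.6%). Between 800 and 1500 bases it was 0.02 over 28 and 0.09 over 1077 others. In genes of 1500 bases or more it was 0.04 over 10 and -0.02 over 7297 others. The part of transcript length was not tested. Leaving out single mice moved the median of the 63 genes and kept it above 0. The median was 0.0074 without wild-type mouse 6, with 32 above 0, 0.06 without wild-type mouse 3 and 0.05 without wild-type mouse 5. It was 0.02 without Xiap-/- mouse 1 and 0.05 without Xiap-/- mouse 3. No ribosomal protein gene passed, where 0.452% of all tested genes did (0.294% higher and 0.158% lower), and 5 had an unadjusted p under 0.05, 2 above and 3 below 0, against 15.8% of all genes (7.82% above and 7.99% below). Groups that did not overlap were 0 in either direction, against 0.819% higher and 1.05% lower. Without wild-type mouse 5 housed apart 1 gene passed, Rpl7 (0.33 ± 0.10, adjusted p = 0.0453), while 7.32% of all genes then did. The depth stand-in was higher in Xiap-/- mice here, and with it as a covariate the median was 0.0012. Mitochondrially encoded transcripts had a median of -0.28 (0 of 8 above 0), B and plasma cell markers -0.37 (0 of 5), Paneth cell genes 0.24 (8 of 11) and cell cycle genes -0.07 (5 of 20), and their part was not tested.

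The stalk gene Rplp1 (chr9:61913284-61914542) had the smallest p. In wild-type mice housed apart it ranged from 11.28 to 12.04 with a median of 11.42, and in the 4 Xiap-/- mice it was 11.37, 11.15, 11.12 and 11.20. Of the Xiap-/- mice 1 lay inside the wild-type range, and wild-type mouse 2 at 12.04 stood far above the next at 11.52. The difference was -0.30 ± 0.11 (adjusted p = 0.197), and -0.19 without that mouse.

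Rps21 followed with -0.28 ± 0.12 (adjusted p = 0.253), Rpl38 with -0.18 ± 0.08 (0.290) and, in the other direction, Rps23 with 0.19 ± 0.09 (0.307). The 73 mitochondrial ribosomal protein genes had a median of 0.12 with 61 above 0, and none passed.

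Co-housing was also compared with housing apart within each genotype. These comparisons share their samples with those above and with each other, so they are no separate evidence. In wild-type mice 15 of 63 genes lay above 0 (48.1% of all genes), with a median of -0.09 and a range from -0.26 to 0.17. Other short and high transcripts lay below 0 about as far. Under 800 bases with a mean of at least 7, 17 ribosomal protein genes had a median of -0.12, with 2 above 0. The 153 other genes of that kind had -0.11, with 16 above 0. In genes of 1500 bases or more the medians were -0.06 over 10 ribosomal protein genes and 0.0077 over 7297 others. The part of length and level was not tested. No ribosomal protein gene passed, as in all tested genes (0%). At an unadjusted p under 0.05 there were 5, all below 0, against 4.87% of all genes below 0, 5.3% above and 10.2% in either direction, and no gene had groups that did not overlap (0.305% higher and 0.221% lower in all genes). Rps26 had -0.26 ± 0.11 (adjusted p = 0.441), Rps9 -0.25 ± 0.11 (0.455), Rplp2 -0.21 ± 0.09 (0.463), Rplp1 -0.23 ± 0.11 (0.478) and Rpl37a -0.18 ± 0.09 (0.486). The median was -0.04 without co-housed wild-type mouse 3, and also without wild-type mouse 3 housed apart. Rps26 had -0.15 and Rplp1 -0.12 without wild-type mouse 2 housed apart. T cell markers had a median of -0.26 (0 of 12 above 0), absorptive cell genes -0.22 (2 of 15), goblet cell genes -0.17 (0 of 8) and B and plasma cell markers -0.15 (0 of 5). Mitochondrially encoded transcripts had 0.28 (8 of 8 above 0) and stem cell genes 0.09 (10 of 12). The part of these cells and of RNA quality was not tested.

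In Xiap-/- mice the genes lay on the other side, with 45 of 63 above 0 (50.2% of all genes), a median of 0.07 and a range from -0.13 to 0.32. None passed, against 0.147% of all tested genes (0.0525% higher and 0.0945% lower), and 6 had an unadjusted p under 0.05, all above 0 (all genes: 5.41% above, 5.85% below, 11.3% in either direction). Groups that did not overlap were 0, against 2.65% higher and 2.98% lower. Rps21, the smallest p (chr2:180257377-180258445), was 8.93, 8.59, 8.46 and 8.58 in the 4 mice housed apart and 8.63, 9.03, 9.05, 9.08 and 9.02 co-housed. Of each group 1 mouse lay in the range of the other, and the difference was 0.32 ± 0.13 (adjusted p = 0.329). Rpl22 had 0.30 ± 0.12 (0.335), Rps16 0.21 ± 0.09 (0.375), Rps24 0.22 ± 0.10 (0.400) and Rps20 0.20 ± 0.09 (0.416). Rpl22 had 0.17 without Xiap-/- mouse 3 housed apart. The median was 0.05 without co-housed Xiap-/- mouse 5. Mitochondrially encoded transcripts had a median of 0.42 (8 of 8 above 0), B and plasma cell markers 0.48 (5 of 5), stem cell genes 0.13 (10 of 12) and cell cycle genes 0.12 (17 of 20). Absorptive cell genes had -0.16 (2 of 15 above 0) and Paneth cell genes -0.11 (2 of 11). Their part was not tested.

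**Figure D5:**
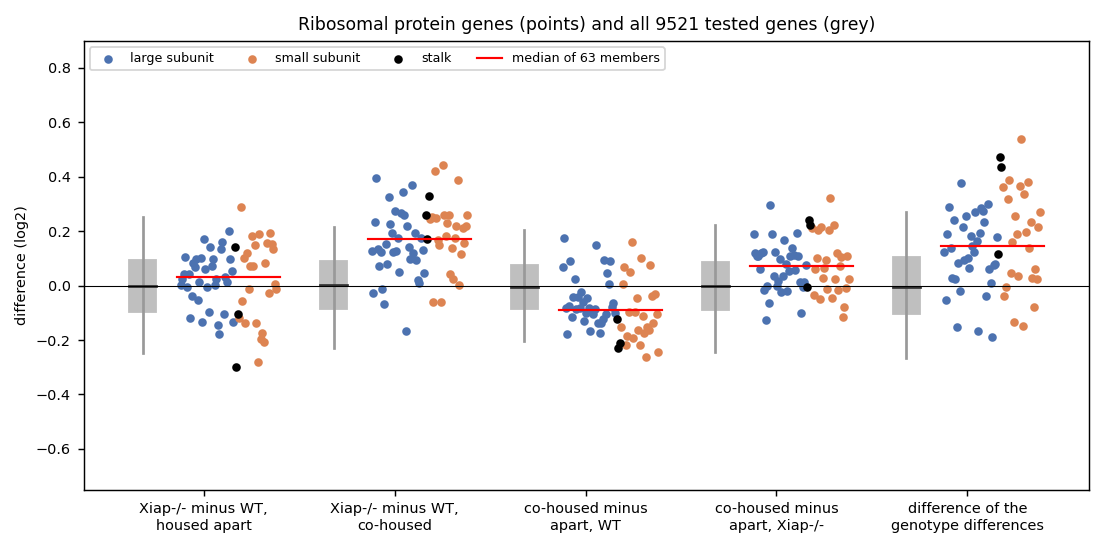
Fitted differences (log2) of the 63 ribosomal protein genes in 5 comparisons, coloured by subunit, with their median in red. Grey boxes give the quartiles, whiskers the range from the 5th to the 95th percentile and black lines the median of all 9521 tested genes. The red lines stand at 0.03, 0.17, -0.09, 0.07 and 0.14.

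Whether the genotype difference itself changed with housing was tested as the co-housed minus the housed-apart difference. It lay above 0 for 52 of 63 genes (49.1% of all genes), with a median of 0.14 and a range from -0.19 to 0.54. None passed, against 0.0105% of all tested genes, and 13 had an unadjusted p under 0.05, all above 0 (all genes: 3.84% above, 3.2% below, 7.05% in either direction). Medians were 0.43 over the 3 stalk genes, 0.19 over the small and 0.12 over the large subunit. Mean level fell in the same order, and a difference between subunits was not tested. The median over the 63 genes was 0.09 without co-housed wild-type mouse 3. Among transcripts under 800 bases it was 0.19 over ribosomal protein genes and 0.03 over others, and over all 73 mitochondrial ribosomal protein genes it was -0.03. Medians of other lists were 0.13 for the pseudogene rows (40 of 47 above 0), 0.62 for B and plasma cell markers (5 of 5), 0.23 for T cell markers (12 of 12), 0.15 for goblet cell genes (6 of 8), 0.06 for cell cycle genes (15 of 20) and 0.18 for mitochondrially encoded transcripts (6 of 8). Paneth cell genes had -0.09, with 3 of 11 above 0. The part of these cells and of RNA quality was not tested.

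Rps21 had the smallest p and the largest value, 0.54 ± 0.17 (adjusted p = 0.501; 95% interval 0.20 to 0.89). It ranged from 8.66 to 9.23 in wild-type mice housed apart, with a median of 8.88, and was 9.03, 8.83, 8.48, 8.62 and 8.57 in co-housed wild-type mice. With the Xiap-/- values above, the genotype difference was -0.28 ± 0.12 housed apart and 0.26 ± 0.12 co-housed, and groups overlapped in both.

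By p the next were the stalk genes Rplp2, with 0.43 ± 0.14 (adjusted p = 0.501), and Rplp1, with 0.47 ± 0.16 (0.510), then Rps20 with 0.37 ± 0.13 (0.540) and Rps15 with 0.39 ± 0.15 (0.614). Rps20 (chr4:3831334-3835665), in the small subunit head, ranged from 10.71 to 10.93 with a median of 10.81 in wild-type and was 10.84, 10.71, 10.60 and 10.60 in Xiap-/- mice housed apart. Co-housed it was 10.74, 10.69, 10.58, 10.62 and 10.68 in wild-type and 10.72, 10.89, 10.92, 10.91 and 11.01 in Xiap-/- mice, where only 1 Xiap-/- mouse lay within the wild-type range.

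The third stalk gene, Rplp0, whose protein anchors the other stalk proteins and is often used as a reference gene, had 0.12 ± 0.14 (adjusted p = 0.898). It was 10.21, 10.12, 9.90, 10.16 and 10.29 in co-housed wild-type and 10.27, 10.42, 10.38, 10.40 and 10.52 in co-housed Xiap-/- mice. Those groups overlapped by 1 mouse each, and their difference was 0.26 ± 0.10 (adjusted p = 0.287).

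The balance between the subunits was compared as the mean of the large minus that of the small subunit genes. Housed apart it was -0.80 ± 0.08 (SD, n = 6) for wild-type and -0.79 ± 0.05 (n = 4) for Xiap-/- mice. Co-housed it was -0.75 ± 0.04 and -0.80 ± 0.02 (n = 5 each). These 4 means lay within 1 SD of the wild-type group housed apart.

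A p that misses the threshold does not show that levels were alike, so the intervals bound the sizes. The 95% interval lay wholly within 0.5 of 0 for 60 of the 63 genes when the genotypes were compared apart and for 53 when they were compared co-housed. Between housings it did for 63 in wild-type mice and for 61 in Xiap-/- mice. It did for 41 in the difference of differences. The highest upper bound co-housed was 0.69, for Rps18, and the lowest lower bound -0.34, for Rpl36. Housed apart the lowest lower bound was -0.53, for Rplp1. For the difference of differences they reached from -0.55, for Rpl7, to 0.89, for Rps21.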

How the data were processed

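RNA of 20 crypt samples was sequenced at the 3′ end with unique molecular identifiers, per the labels' protocols. The authors deposited log2 values, already normalized, that run from -3.88 to 16.30. The submitters' processing notes name DESeq2 1.18.1 and build GRCm38.p6. The transformation, aligner and handling of reads with several matches are not given in the sources used here.

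They were used as deposited, without a pseudocount. Fits used limma 3.58.1 (R 4.3.3). Genes with a mean of at least log2 of 10 (9521 of 23020) entered 1 model of the 4 group means over 20 libraries, with variance trend and robust moderation and 16 residual degrees of freedom. Tests are two-sided, with Benjamini-Hochberg adjustment over all tested genes and a threshold of 0.05. The script was tested on simulated data. Very low genes in the depth stand-in (1854) had a mean below -3 and counted when 0.015 above their median. Library pairs correlated at 0.973 to 0.996, and no pair was identical.

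The members and lists were chosen with earlier results of these data known. Genes named are, per comparison, the 5 with the smallest p, the extremes of level and spread, the stalk genes, paralogs, the 2 highest of other lists used here, and genes whose groups did not overlap. Rpl36, Rpl13, Rps2, Rpl28, Rpl24, Rps12, Rpl29, Rps19, Rps13 and the pseudogene rows were chosen after their values were seen. Alternatives were other filters, normalizations, fits and left-out libraries. Positions are from GENCODE M21 on GRCm38. Rps14 sequence is not shown, and the single values of 2 members are not reported here.

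Replicate numbers match across groups, but the labels tie them to no cage or litter. Correlations of same-numbered deviations ran from -0.42 to 0.25, so the numbers were not taken to pair the mice.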

Additional observations from a re-analysis of the deposited data

Results flagged for a closer look

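In 76 groups of values (19 genes or means in the 4 groups) the highest or lowest mouse was compared with the rest, and 5 stood apart by Dixon's criterion, where chance flags about 5%. Rplp1 was 12.04 in wild-type mouse 2 housed apart, and the next was 11.52. Rps15 was 9.09 in Xiap-/- mouse 1 housed apart, and the next was 8.77. Rps24 was 9.12 in co-housed wild-type mouse 1, and the next was 8.92. Co-housed Xiap-/- mouse 1 stood below the others in Rps21 (8.63, the next 9.02) and in Rps26 (9.91, the next 10.03).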

How the results depend on the processing

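Of the alternatives to the 40 values followed, 1175 were labelled the same, 10 passed where the reported value did not, 4 moved and 0 reversed. For differences of single genes, the same meant an unchanged direction and side of the threshold. For medians it meant a shift under 0.09, the SD of the library mean of the 63 genes, and for counts staying within a fixed factor. Only differences of single genes could be labelled reversed. A small median could thus change its sign and count as the same, though none did. The 2-group fit does not apply to the difference of differences. For co-housed genotypes the genes passing were 7 with the 2 groups alone and 5 with library weights, against 0. Housed apart it was 1 without wild-type mouse 5. Genes above 0 for housing in wild-type mice were 6 of 47 with a minimum mean of log2 of 32, against 15 of 63. That bound is a mean of 5 and leaves out the 16 genes below it, 9 of which lay above 0. The differences of the other genes do not change with this filter. Why the numbers passing differ between fits was not tested. Leaving out each mouse in turn gave medians of 0.0074 to 0.06 for genotype housed apart, 0.13 to 0.20 co-housed, -0.13 to -0.04 for housing in wild-type mice, 0.05 to 0.09 in Xiap-/- mice and 0.09 to 0.19 for the difference of differences, and 0 to 1 passing genes.

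With the replicate number as a block, medians in that order were 0.03, 0.17, -0.13, 0.05 and 0.15, genes above 0 were 38, 57, 13, 41 and 51, and 0 passed, as without it. In no comparison did more than 2 pairs of same-numbered mice correlate over 0.1. Depth per library is unknown, which limits what can be said of genes near the floor.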
